A study of Xenopus laevis with 60 samples.

Results

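The genes described here code for the proteins that hold the cells of the early frog embryo together: cadherins, protocadherins, claudins, occludin, the zonula occludens proteins and the epithelial cell adhesion molecule. They were chosen by symbol alone, as every annotated copy whose symbol begins with cdh or cldn and a digit, with pcdh or with tjp, or is ocln or epcam. That rule gave 109 of 49580 annotated genes, the L and S copies of Xenopus laevis counted apart. By family these were 38 claudins, 10 cadherins called classical here (cdh1, cdh2, cdh3, cdh5 and cdh15), 24 other cadherins, 20 protocadherins outside the gene clusters, 8 clustered protocadherins, 7 copies of tjp and ocln, and 2 of epcam. These groups were set by symbol and not by protein structure, so the other cadherins may include further ones of classical type. The rule itself used no expression value.

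Classical cadherins join neighbouring cells through their extracellular repeats and hold on to the actin cytoskeleton through catenins. Claudins and occludin form the strands of the tight junction, which the zonula occludens scaffolds (the tjp genes) anchor inside the cell. A Xenopus egg is stocked with maternal mRNAs for cleavage, during which the embryo's own genome is nearly silent, and it is switched on in the blastula (zygotic genome activation), so a gene of this kind can be supplied by the mother, by the embryo, or by both.

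The series sampled whole wild-type embryos (strain Xla.NXR-WTNXR) by strand-specific total RNA-seq after ribosomal RNA depletion, 2 embryos per library. Replicates were separate sets of embryos, which in the treated groups came from 1 collection, so that p-values there measure the spread within a collection. The labels give no collection for stages 5, 6, 7, 8 and 10.5. The authors credit stage 5 RNA-seq to an earlier study of theirs, and 1 of the 2 libraries of stage 8 had been deposited earlier than the other. The series asked which genes the embryo first transcribes, and which of them depend on the maternal transcription factors pou5f3 and sox3, which belong to the same families as the mammalian pluripotency factors. An untreated time course covered stages 5 (n = 2), 6 (n = 1), 7 (n = 1), 8 (n = 2), 9 (n = 2) and 10.5 (n = 2). The stage 5 libraries alone had also been depleted of the mitochondrial mRNAs COX2 and COX3, which cannot be told apart from stage in any comparison with stage 5. All treated embryos were taken at stage 9. Triptolide, an inhibitor of RNA polymerase II, was given at 20 µM from stage 1 and set against DMSO in collections A and B (n = 2 per group). Cycloheximide (CHX), which blocks translation and hence new transcription factors, was given at 500 µg/mL from stage 8 in collection B (n = 2) and set against the DMSO and triptolide embryos of that collection. Antisense morpholinos (MO), which block translation of the targeted mRNA, were injected at stage 1 against a GFP MO. Without CHX these were 40 ng pou5f3.3 MO, 40 ng sox3 MO and 40 ng GFP MO against 120 ng GFP MO in collection G (n = 3 per group). In collection F, 40 ng each of pou5f3.2, pou5f3.3 and GFP MO (the double MO) and 40 ng each of pou5f3.2, pou5f3.3 and sox3 MO (the triple MO) were set against 120 ng GFP MO (n = 3 per group), with a further triple MO group given CHX (n = 3). With CHX, collection C had 40 ng pou5f3.3 MO with 40 ng GFP MO, 40 ng sox3 MO with 40 ng GFP MO, and 40 ng of each together, against 80 ng GFP MO (n = 2 per group), and collection D had a high dose of 55 ng pou5f3.3 MO with 75 ng sox3 MO against 80 ng GFP MO (n = 2 per group). Collection H had CHX with the triple MO (n = 2) against CHX with 120 ng GFP MO (n = 3), and a group with 120 ng GFP MO and no CHX (n = 2). The labels call the CHX libraries of collection H discarded, so its comparison was fitted apart. Collection E had 1 library each of untreated, GFP MO and pou5f3.3 with sox3 MO embryos, and its values are given with no test. Its recorded doses were 80 ng GFP MO and 40 ng each of pou5f3.3 and sox3 MO, though the study's methods give 120 ng in all without CHX.

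Across the 60 libraries the exon counts summed to between 6809284 and 25358689 and the intron counts to between 36762 and 1637909. Exon reads measure mature and unspliced RNA together, including what the mother left, and intron reads measure unspliced, mostly new transcripts. The authors had left intron stretches with reads at stage 5 out of their intron annotation, so intron levels at stage 5 were low by construction, for these genes as for all others. Levels are given in TPM (exon reads scaled by gene length and to one total per library) and in RPKM (intron reads scaled by intron length and library depth). For the second stage 8 library and both at stage 10.5 the deposited TPM had been scaled over more genes than elsewhere, so tests with those libraries rest on the counts, sums that include them are given in RPM (exon reads scaled to library size alone), and their TPM are not on quite the same scale as the others. A gene was called in a comparison when edgeR's quasi-likelihood test on its exon or its intron counts gave a Benjamini-Hochberg adjusted p under 0.05 over all genes tested and a log2 difference of at least 1.5. Of the 109 genes, 74 had enough exon reads for a test (of 27602 in all) and 33 enough intron reads (of 9916). The other 35 reached at most 0.794 TPM in any library outside collection H, and 8 of them had no exon read in any library. With whole embryos, fewer cells of a kind and less RNA per cell cannot be told apart in any value below.

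At stage 5 the adhesion genes were already abundant. Their TPM summed to 4779 and 4870 in the 2 stage 5 libraries, of which claudins made up 62.0% and 62.3%, epcam 14.6% and 14.3%, and classical cadherins 10.5% in both. With a mean of at least 1 TPM at stage 5 as the line for a maternal gene, 26 of the 74 tested copies were maternal and 48 were not. The maternal set was 9 claudins, all 7 copies of tjp and ocln, 5 protocadherins, 2 classical cadherins (cdh3.L and cdh3.S), both epcam copies and cdh26.S, while the clustered protocadherins had none. The highest levels were those of the claudin 6 genes, which in mammals mark embryonic epithelia. cldn6.1.L had 660.3 and 688 TPM, cldn6.2.L 647 and 662, cldn6.1.S 508 and 515 and cldn6.2.S 507 and 510.2 TPM at stage 5. epcam.S, the cell surface glycoprotein that supports epithelial adhesion, followed with 462 and 467 TPM. The order of the 5 was the same in both libraries, but the ranges of cldn6.1.L and cldn6.2.L overlapped, as did those of cldn6.1.S and cldn6.2.S.

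**Figure D1:**
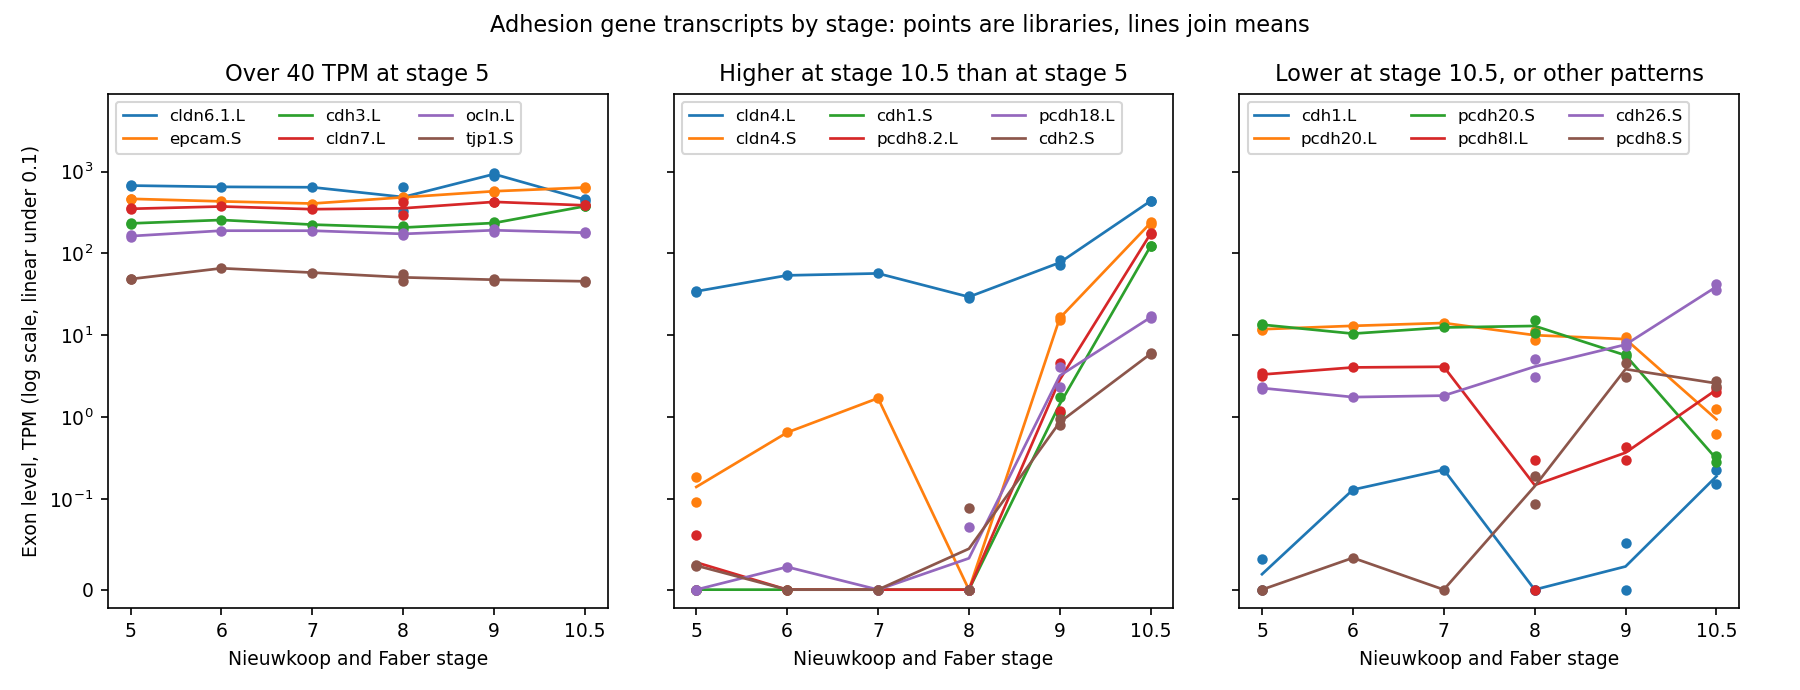
TPM (vertical axis, linear below 0.1 and logarithmic above) of 18 adhesion genes at stages 5 to 10.5 (horizontal axis, untreated embryos); points are libraries and lines join the means. Left, genes over 40 TPM at stage 5, all over 40 TPM in every library; middle, genes higher at stage 10.5 than at stage 5, such as cldn4.S and cdh1.S; right, genes lower at stage 10.5, such as pcdh20.L and pcdh20.S, or with other patterns.

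Against stage 5, stage 9 embryos had 40 of the 74 tested copies higher in exons or introns, where 35.4% of all tested genes were higher, and 3 copies lower, where 6.44% of all genes were. At stage 10.5 the counts were 44 higher (44.3% of all genes) and 5 lower (19.6%). At stage 8 they were 11 higher (8.31% of all genes) and 3 lower (4.39%), and without the second stage 8 library 7 higher and 2 lower. Maternal copies were set apart by their stage 5 exon levels, which are also the reference of this comparison. Fewer exon rises among them than among the other copies are therefore partly built in. Of the 26 maternal copies only 1 had higher exon counts at stage 9 than at stage 5 (1.29% of all maternal genes had), and 17 of the 18 with testable introns had higher intron counts, beside 82.9% of all maternal genes. Testable introns needed at least 0.25 RPKM in some library, and the highest mean of these copies at stage 5 was 0.12 RPKM (epcam.S). They thus became testable through other libraries, where they were higher. Such intron shares, here and for all genes, are partly fixed by that filter. Of the 48 copies that were not maternal, 23 had higher exon counts at stage 9, beside 27.1% of all such genes. Their intron calls are not counted apart here, so the classes are not compared in introns. Of the 74 copies 48 were not maternal, against 8893 of all 27602 tested genes. Medians over the 2 sets thus compare unlike shares of copies that start low, and they were not split by class. The median log2 difference of exon counts between stage 10.5 and stage 5 was 0.85 over the 74 copies and -0.39 over all tested genes. DESeq2's size factors moved that median over all genes by 0.39 and left 45 copies higher and 5 lower at stage 10.5.

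Among the classical cadherins, cdh3 (C-cadherin, also called EP-cadherin, the main cadherin of the cleaving Xenopus embryo) was maternal and stayed. cdh3.L had 232 and 233 TPM at stage 5, 214 and 199.9 at stage 8, 239.6 and 231 at stage 9 and 374 and 379.5 at stage 10.5. cdh3.S had 268 and 278 TPM at stage 5, 308 and 289 at stage 9 and 307 and 293 at stage 10.5. The exon counts of cdh3.L at stage 10.5 against stage 5 gave a log2 difference of 0.70 (SE 0.08), short of the 1.5 needed for a call. Its introns were nearly unread at stage 5, and at stage 9 they reached 6.48 and 6.88 RPKM, against 0.034 and 0.017 RPKM at stage 5 (log2 difference 7.83, SE 0.25, adjusted p = 7.0e-32). The low intron level at stage 5 is partly set by the intron annotation, so this difference is partly built in.

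The zygotic cdh1.S and both copies of cdh2 were low at stage 9 and higher at the start of gastrulation (stage 10.5). The other classical cadherins that were not maternal did not all share this. cdh15.S was called higher at stage 10.5 than at stage 9, while cdh1.L and cdh15.L were not called. cdh5.L (VE-cadherin, of blood vessels) was lower, with 0.135 and 0.269 TPM at stage 10.5, against 1.09 and 1.23 TPM at stage 9 (log2 difference -2.35, SE 0.59, adjusted p = 4.8e-04). The stage 9 embryos were of collection A, whose DMSO embryos also had more cdh5.L than those of collection B. Stage and collection cannot be told apart in this fall. cdh1.S (E-cadherin, the cadherin of epithelia) was at 0 in every library of stages 5 to 8, had 1.12 and 1.75 TPM at stage 9 and 122 and 124 TPM at stage 10.5. On the scale of counts over library size it was at least 13.7-fold higher at stage 9 and at least 1337-fold higher at stage 10.5 than at stage 5, taking 3 counts per library as the floor of the stage 5 libraries. cdh2.S (N-cadherin, the cadherin of the neural plate and mesoderm) had 0.026 and 0.027 TPM at stage 5, 0.789 and 0.94 at stage 9 and 6.03 and 5.82 at stage 10.5. cdh2.L had 0.164 and 0.179 TPM at stage 9 and 5.58 and 6.51 at stage 10.5, at least 58.4-fold above its stage 5 libraries, which were both at 0. Of the summed TPM of cdh1, cdh2 and cdh3, cdh3 made up 99.99% and 99.99% at stage 5, 99.6% and 99.4% at stage 9, and 83.5% and 83.2% at stage 10.5, when cdh1 had 15.0% and 15.3%. cdh11.L, known in Xenopus as Xcad-11 and from the neural crest, had 3.02 and 3.79 TPM at stage 10.5 and was at 0 in both stage 5 libraries (at least 48.1-fold higher).

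The claudins held a large maternal stock, and cldn4 rose in both of its copies. Their exon reads summed to 1224 and 1245 RPM at stage 5, 1187 and 764 at stage 8, 1524 and 1592 at stage 9 and 1825 and 1881 RPM at stage 10.5, so the libraries of stage 8 stood apart from each other. cldn6.1.S, one of the most abundant, had 508 and 515 TPM at stage 5, 246 and 146 at stage 8, 567 and 565 at stage 9 and 201 and 192 at stage 10.5 (log2 difference of exon counts between stages 10.5 and 5 -1.37, SE 0.11, not called by its size). cldn4, a barrier-forming claudin and a receptor for a clostridial enterotoxin in mammals, rose instead. cldn4.L had 34.6 and 34.1 TPM at stage 5, 71.7 and 82.6 at stage 9 and 435 and 441 at stage 10.5 (log2 difference between stages 10.5 and 5 3.68, SE 0.11, adjusted p = 5.3e-33). cldn4.S had 0.183 and 0.096 TPM at stage 5, 16.9 and 15.5 at stage 9 and 231 and 242 at stage 10.5 (log2 difference between stages 10.5 and 5 10.64, SE 0.24, adjusted p = 1.6e-38). Both copies were thus among the highest adhesion genes at stage 10.5, where epcam.S led with 634 and 641 TPM. Markers of all germ layers moved with this rise and with those of the other copies. The 10 marker copies of ectoderm and epidermis summed to 2499 and 2524 RPM at stage 10.5, against 506 and 514 RPM at stage 9. The 5 neural copies had 1155 and 1196 RPM at stage 10.5, against 254 and 279 at stage 9, the 8 of mesoderm 844 and 867 against 62.3 and 91.2, and the 8 of endoderm 651 and 654 against 103 and 128. The part of these markers was not tested. cldn5.L and cldn5.S, known from the blood-brain barrier of mammals, were called higher at stage 9 than at stage 5 but stayed low, with 1.3 and 0.711 and 1.65 and 1.38 TPM at stage 9 for the L and S copy.

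None of the 7 copies of tjp and ocln was called in exons at stage 10.5 against stage 5, with log2 differences between -0.55 (tjp3.S) and 0.15 (ocln.L). tjp1.S (ZO-1) had 48.9 and 48.2 TPM at stage 5, 49 and 46.2 at stage 9 and 45 and 46.1 at stage 10.5. ocln.L, the occludin copy with more RNA, had 159 and 166 TPM at stage 5, 200.2 and 183 at stage 9 and 177 and 181 at stage 10.5. On the scale of library size alone the 7 copies summed to 749 and 771 RPM at stage 10.5, against 654 and 661 RPM at stage 5. The introns of ocln.L were called higher, with 0.43 and 0.419 RPKM at stage 9, against 0.023 and 0.017 RPKM at stage 5 (log2 difference 4.2, SE 0.27, adjusted p = 1.6e-19). Intron levels at stage 5 were low by construction, so this rise is partly built in.

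In exons, protocadherins outside the clusters held the largest rises and the largest falls between stages 5 and 10.5 among copies over 1 TPM at their higher stage, cdh1.S and cldn4.S aside. pcdh8.2.L had 0.060 and 0 TPM at stage 5, 1.17 and 4.55 at stage 9 and 177 and 172 TPM at stage 10.5, the highest protocadherin there, and pcdh8.2.S, at 0 at stage 5, had 66.9 and 69.4 TPM at stage 10.5 (at least 849-fold higher). pcdh18.L was at 0 in both stage 5 libraries, had 2.31 and 4.08 TPM at stage 9 and 16.1 and 16.9 TPM at stage 10.5 (at least 318-fold above stage 5). pcdh7.L, which in Xenopus is NF-protocadherin and serves the integrity of the ectoderm, had 0.053 and 0 TPM at stage 5, 2.77 and 3.5 at stage 9 and 17.26 and 16.6 at stage 10.5. The levels of pcdh8.L stayed low, with 0.595 and 1.26 TPM at stage 9 and 0.456 and 0.654 TPM at stage 10.5. pcdh8.S had its higher values at stage 9 too, with 3.12 and 4.56 TPM there and 2.74 and 2.42 TPM at stage 10.5.

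The copies that fell were the maternal pcdh20.L and pcdh20.S and 3 low copies. pcdh20.L had 11.6 and 12 TPM at stage 5, 9.36 and 8.54 at stage 9 and 1.25 and 0.621 at stage 10.5 (log2 difference between stages 10.5 and 5 -3.65, SE 0.23, adjusted p = 6.1e-20). pcdh20.S had 13.6 and 13.3 TPM at stage 5, 5.52 and 5.83 at stage 9 and 0.285 and 0.33 at stage 10.5 (log2 difference -5.42, SE 0.28, adjusted p = 1.6e-23). The 7 germ plasm marker copies also stood lower at stage 10.5, at 257 and 264 RPM in sum, against 728 and 770 RPM at stage 9, and their part in these falls was not tested. pcdh20.L also differed between collections at stage 9, as given below, and the labels give no collection for stages 5 and 10.5. Stage and collection cannot be told apart in its fall. pcdh1.S, axial protocadherin in Xenopus, had 48.4 and 49.4 TPM at stage 10.5, against 99.6 and 103 TPM at stage 5, but the log2 difference of -1.04 (SE 0.08) was short of a call. The other 3 copies that fell between stages 5 and 10.5, cdh12.S, cdh26.L and pcdh17.L, are named after their values were seen and had at most 0.861 TPM at stage 5. At stage 9 the lower copies were pcdh8l.L and the low cdh12.S and pcdh12.L, likewise named after their values were seen. pcdh8l.L had 0.432 and 0.30 TPM at stage 9, against 3.46 and 3.14 TPM at stage 5 (log2 difference -3.27, SE 0.31, adjusted p = 3.2e-13), but it had 2.29 and 2.02 TPM at stage 10.5 and, among stage 9 embryos, 4.88 and 4.45 TPM with CHX and GFP MO in collection D.

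Besides cldn4.L, the maternal copy with higher exons at stage 10.5 was cdh26.S. It had 2.17 and 2.34 TPM at stage 5, 7.93 and 7.41 at stage 9 and 35.9 and 42.4 TPM at stage 10.5 (log2 difference between stages 10.5 and 5 4.12, SE 0.16). Its introns were at 1.26 and 1.37 RPKM at stage 10.5, against 0.013 and 0.038 RPKM at stage 9 (log2 difference 5.64, SE 0.20, adjusted p = 2.2e-31). cdh26.S also differed between collections at stage 9, as given below, and the labels give no collection for stages 5 and 10.5. Stage and collection cannot be told apart in its rises. From stage 9 to stage 10.5 as a whole, 25 copies were higher (25.7% of all genes) and 8 lower (14.0%). With DESeq2's size factors, which moved the median of all genes by 0.26, 29 copies were higher and 7 lower, and of all genes 8285 were higher and 2767 lower, against 7107 and 3878 before.

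The triptolide comparison asked which of these RNAs depend on new transcription. In collection A 34 of the 74 copies were lower with triptolide than with DMSO (27.4% of all genes) and 1 was higher (0.167%), and in collection B 33 were lower (29.8%) and 0 higher (0.188%; by DESeq2 0, and at an unadjusted p under 0.05 in edgeR's test 16). In exons 0 of the 26 maternal copies were lower in either collection, beside 1.02% of all maternal genes in A and 0.898% in B (by DESeq2 0 in A and 0 in B, and at an unadjusted p under 0.05 1 and 1). Among the 48 copies that were not maternal, 18 were lower in exons in collection A (15.5% of all such genes) and 17 in collection B (17.4%). Intron counts of the maternal copies were lower for 15 of 18 in both collections, beside 69.8% of all maternal genes in A and 75.0% in B. The intron filter, passed in any library, favours rows that are high without triptolide, so these shares are partly set by it. The 2 triptolide effects were tested against each other, and for 1 copy the effect of A lay above that of B (0.377% of all genes). For 0 copies it lay below (0.163%; by DESeq2 0, and at an unadjusted p under 0.05 3). Germ layer markers were lower too: with triptolide in A and B the endoderm copies summed to 0.342 to 1.65 TPM, against 164 to 203 with DMSO, those of mesoderm to 2.21 to 6.61 against 89.1 to 105, those of ectoderm to 160 to 200 against 385 to 445, and the neural copies to 143 to 195 against 199 to 216, while germ plasm copies had 655 to 843 TPM with triptolide, against 584 to 732 with DMSO. Their part was not tested.

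cdh3.L, C-cadherin, shows the split within a single gene. Its exons had 259 and 239 TPM with triptolide, against 257 and 224 TPM with DMSO in collection A, and 281 and 248 against 248 and 259.5 TPM in collection B, so the groups overlapped. Its introns had 0.089 and 0.063 RPKM with triptolide, against 5.92 and 6.51 RPKM with DMSO in collection A (log2 difference -6.16, SE 0.22, adjusted p = 5.7e-29). In collection B they had 0.013 and 0.019 RPKM with triptolide, against 2.54 and 2.8 RPKM with DMSO (-7.24, SE 0.29). epcam.L gave the same picture, with introns at 0.052 and 0.027 RPKM with triptolide, against 4.43 and 5.64 RPKM with DMSO in collection A (log2 difference -6.74, SE 0.36), and exons at 312 and 285 TPM with triptolide, against 309 and 289 TPM with DMSO. For cldn7.L, a maternal claudin, the introns had 0.095 and 0.015 RPKM with triptolide, against 11 and 9.56 RPKM with DMSO in collection B (log2 difference -7.39, SE 0.35).

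**Figure D2:**
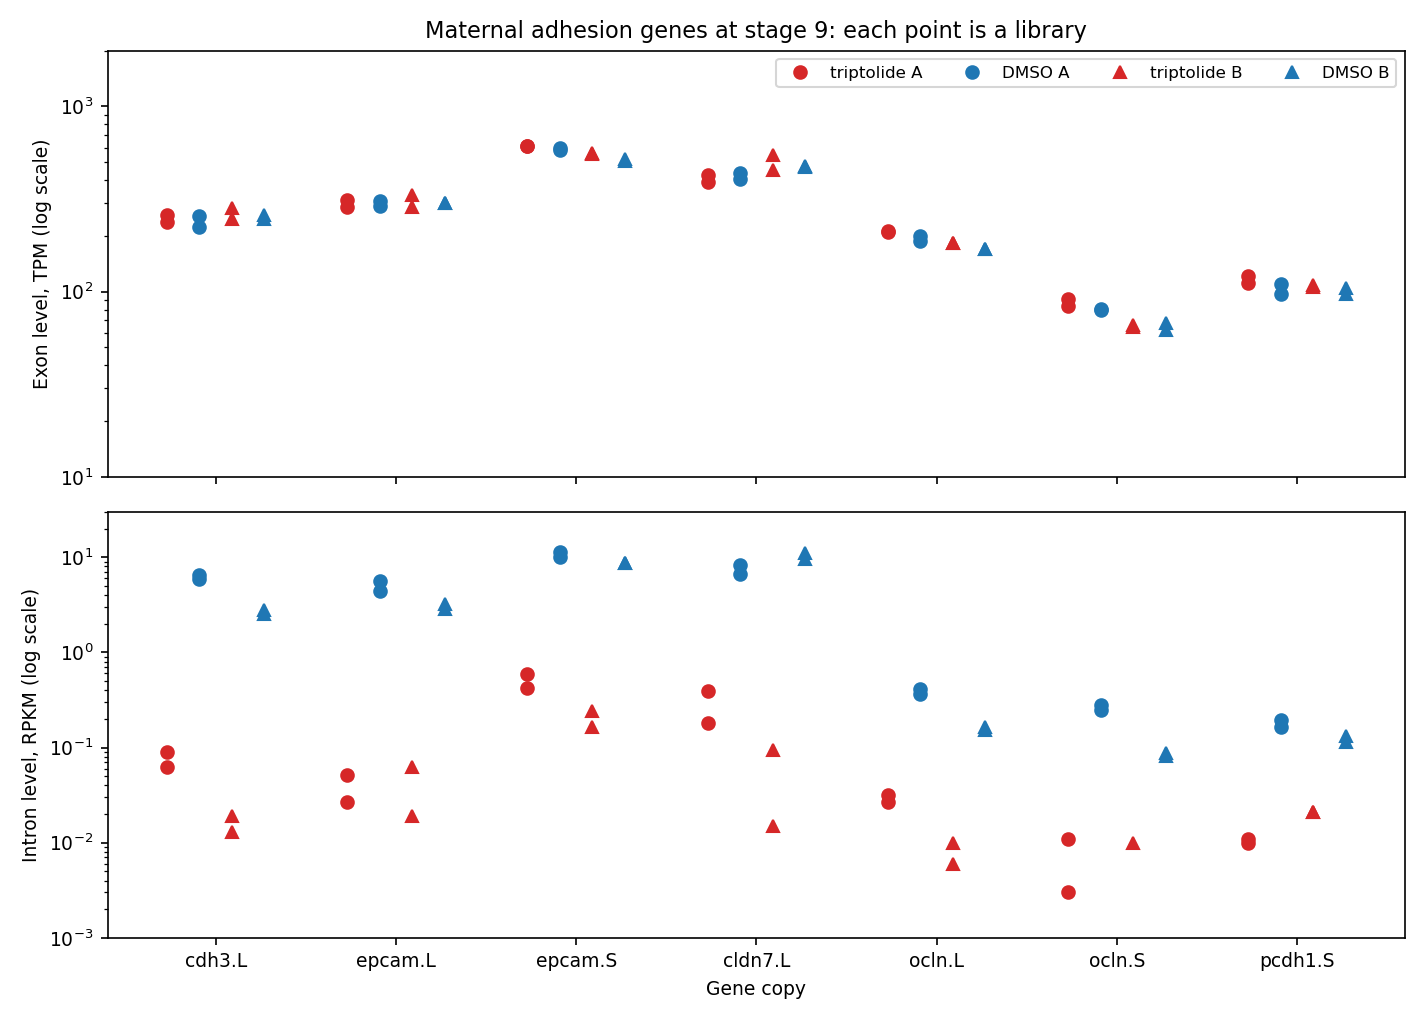
Exon levels in TPM (top, logarithmic axis) and intron levels in RPKM (bottom, logarithmic axis) of 7 maternal copies in single stage 9 libraries, with triptolide left of DMSO in collections A and B. The exon points lie level across the groups, while the intron points of every copy shown lie lower with triptolide, as for cdh3.L with 0.089 and 0.063 RPKM, against 5.92 and 6.51 RPKM with DMSO in collection A.

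Among the zygotic copies the exons were lower too. cldn4.S had 1.24 and 0.734 TPM with triptolide, against 13.2 and 14.3 TPM with DMSO in collection A (log2 difference -3.64, SE 0.28, adjusted p = 6.6e-16), and 0.223 and 0.461 TPM with triptolide, against 9.01 and 7.94 TPM with DMSO in collection B. pcdh8.2.S was at 0 in all 4 triptolide libraries, against 6.9 and 8.68 TPM with DMSO in collection A and 4.84 and 5.5 TPM in B, at least 60.5-fold and at least 60.4-fold lower. pcdh10.S (OL-protocadherin in mammals) was at 0 in both triptolide libraries of collection A, against 3.66 and 2.53 TPM with DMSO (at least 28.3-fold lower). The single copy that was higher, pcdh12.L in collection A, is named after its values were seen and had 0.218 and 0.288 TPM with triptolide, against 0.070 and 0.10 TPM with DMSO. It was not called under any of the 10 alternatives. cldn4.L lies between the classes: its exons had 33.8 and 40.9 TPM with triptolide, against 73.8 and 72.5 TPM with DMSO in A, and 14.7 and 21.4 TPM with triptolide, against 43.8 and 45 TPM with DMSO in B, log2 differences of -0.82 and -1.20 that were short of a call.

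A copy was scored as activated at stage 9 if triptolide lowered it in collections A and B alike and if untreated stage 9 embryos of collection A stood above stage 5. This held for 30 of the 74 copies (40.5%), beside 24.3% of all tested genes. It held for 12 of 26 maternal copies (46.2%, beside 28.2% of all maternal genes) and for 18 of 48 others (37.5%, beside 16.0%). The maternal ones were cdh3.L, cdh3.S, cldn6.1.L, cldn6.2.L, cldn7.L, epcam.L, epcam.S, ocln.L, ocln.S, pcdh1.L, pcdh1.S and tjp3.S. The zygotic ones were cdh1.S, both copies of cdh2, cldn5, pcdh7, pcdh8, pcdh8.2, pcdh10, pcdh18 and pcdha13, and cldn4.S. The 12 maternal copies met the rule through introns, since no maternal copy was lower in exons with triptolide. Introns were testable for 18 of the 26 maternal copies, against 8256 of 18709 maternal genes. The maternal shares, and those over all copies, therefore partly follow how many copies had testable introns. None of the 15 tested cadherins outside the group called classical here met the rule. Among them was the maternal cdh26.S, whose exons had 8.61 and 8.34 TPM with triptolide, against 7.14 and 8.15 TPM with DMSO in collection A. At stage 8 the rule, with stage 8 also above stage 5, held for 6 copies (8.11%, beside 3.12% of all genes): the maternal cdh3.S, epcam.S and pcdh1.S and the zygotic pcdh7.L, pcdh10.S and pcdha13.S. Of these epcam.S had introns at 1.22 and 1.31 RPKM at stage 8, against 0.146 and 0.095 RPKM at stage 5 (log2 difference 3.35, SE 0.54, adjusted p = 2.5e-06). Here too the stage 5 introns were low by construction.

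Cycloheximide was used to find copies transcribed without new protein. With CHX 25 of the 74 copies were higher than with triptolide in collection B (14.2% of all genes) and 0 lower (0.496%; by DESeq2 0, and at an unadjusted p under 0.05 7). Activated copies that were also higher with CHX than with triptolide, the first wave, numbered 22 (29.7%, beside 11.6% of all genes). They were 7 of the maternal copies (26.9%, beside 13.0%), namely cdh3.L, cdh3.S, cldn6.1.L, cldn7.L, epcam.L, epcam.S and ocln.L, and 15 of the zygotic ones (31.2%, beside 8.60%), which left out pcdh8.2.L, pcdh8.2.S and pcdha13.L. The triptolide libraries of collection B serve in both steps of this rule. As with the activated copies, the maternal share partly follows how many copies had testable introns.

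Against DMSO, CHX embryos had 15 copies lower (20.6% of all genes) and 4 higher (2.21%). pcdh8.2 was the extreme case: pcdh8.2.S was at 0 in both CHX libraries, against 4.84 and 5.5 TPM with DMSO (at least 44.2-fold lower), and pcdh8.2.L had 0.037 and 0.045 TPM with CHX, against 2.29 and 2.79 TPM with DMSO (log2 difference -5.84, SE 0.78, adjusted p = 1.4e-08). cldn4.S had 1.99 and 2.31 TPM with CHX, against 9.01 and 7.94 TPM with DMSO (log2 difference -2.04, SE 0.25), and yet more than the 0.223 and 0.461 TPM with triptolide. The 12 maternal copies that were lower were lower in introns only (66.7% of the 18 tested, beside 53.3% of all maternal genes), among them epcam.L with 0.688 and 0.461 RPKM with CHX, against 2.84 and 3.26 RPKM with DMSO (log2 difference -2.35, SE 0.22). Markers also differed between these embryos. With CHX the endoderm copies summed to 47.4 and 52.5 TPM, against 191 and 200 with DMSO, those of mesoderm to 31.9 and 36.9 against 89.1 and 93.9, those of ectoderm to 257 and 283 against 434 and 445, the neural copies to 258 and 336 against 206 and 216, and the germ plasm copies to 717 and 737 against 584 and 604. Their part in the lower and higher copies was not tested.

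The 4 copies above DMSO were pcdh18.L, pcdh8.L, cdh2.L and pcdh8l.S. pcdh18.L had 6.32 and 7.67 TPM with CHX, against 0.935 and 1.33 TPM with DMSO (log2 difference 2.54, SE 0.24, adjusted p = 3.9e-13). pcdh8.L had 1.96 and 2.42 TPM with CHX, against 0.469 and 0.476 TPM with DMSO (log2 difference 2.13, SE 0.31). The introns of cdh2.L, N-cadherin, had 0.162 and 0.124 RPKM with CHX, against 0.014 and 0.011 RPKM with DMSO (log2 difference 3.6, SE 0.28, adjusted p = 2.2e-15). pcdh8l.S, annotated as pcns after neural crest and somites, had 0.314 and 0.329 TPM with CHX, against 0 and 0.078 TPM with DMSO, and DESeq2 did not call it. In all 4 the CHX libraries lay above both DMSO libraries.

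**Figure D3:**
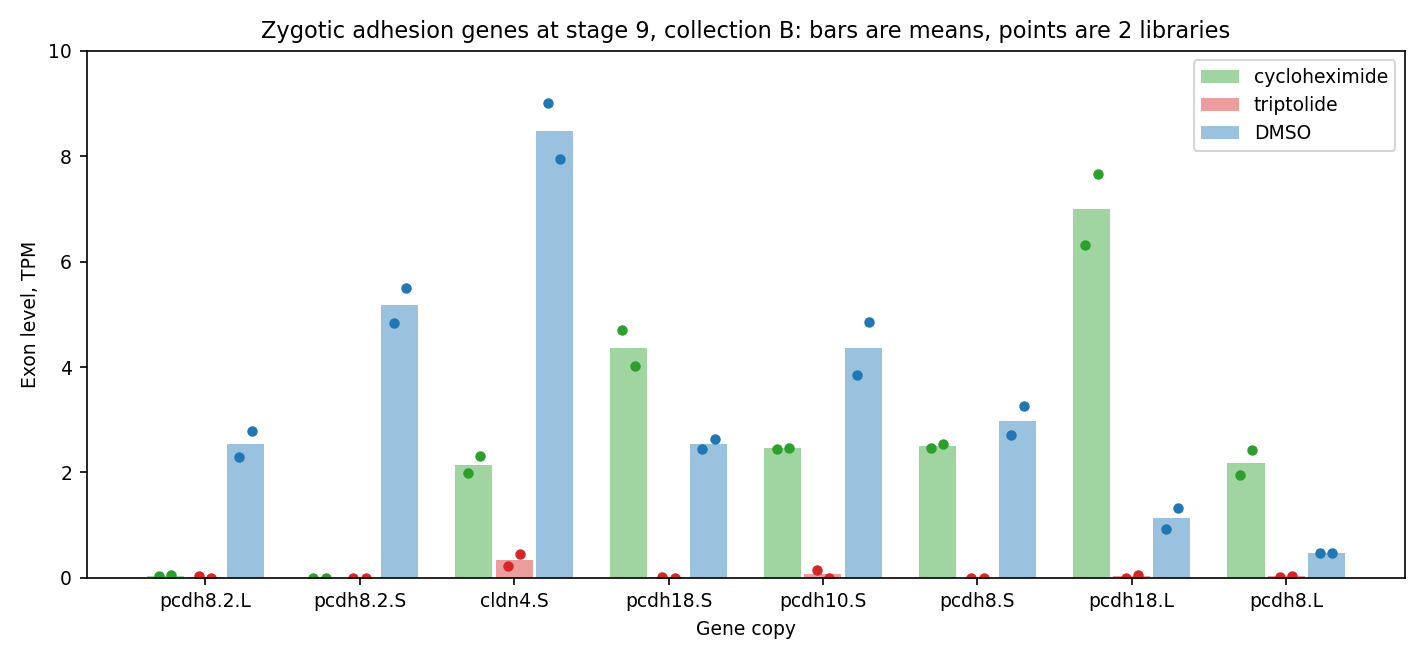
TPM of 8 zygotic copies in stage 9 embryos of collection B with CHX, triptolide or DMSO (bars, means; points, the 2 libraries of each group). pcdh8.2.S stands at 0 with CHX and with triptolide, cldn4.S lies low with both, and pcdh18.L and pcdh8.L stand higher with CHX than with DMSO.

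In morphants without CHX more adhesion copies were higher than lower. With pou5f3.3 and sox3 MO in collection G, 5 of the 74 copies were higher than with GFP MO (3.41% of all genes) and 0 lower (1.45%; by DESeq2 0, and at an unadjusted p under 0.05 9). With the double MO in collection F, 6 were higher (2.24%) and 0 lower (1.62%; by DESeq2 0, and at an unadjusted p under 0.05 5), and with the triple MO 9 were higher (3.86%) and 1 lower (2.83%). Without the third GFP MO library of G 2 copies were called there, and without its first MO library 3. Both comparisons of collection F share the GFP MO libraries. Markers moved with these results. In collection G the endoderm copies summed to between 105 and 147 TPM with MO, against 58.3 to 69.4 with GFP MO, and those of mesoderm to between 47.2 and 59.1, against 23.8 to 28.7, while ectoderm (249.7 to 288 against 274 to 324), neural (239.8 to 266 against 246 to 271) and germ plasm copies (670.3 to 709.5 against 672 to 709) overlapped. In collection F the endoderm copies had 178 to 198 TPM with the double MO and 174 to 243 with the triple MO, against 93.7 to 103 with GFP MO. Those of mesoderm had 83.8 to 86.8 and 67.9 to 86.0, against 62.2 to 67.5, and the neural ones 156 to 165 and 175 to 194, against 204 to 213. The ectoderm and germ plasm copies overlapped between the groups of F. The part of these markers in the results below was not tested.

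cldn4.S was higher in all 3 comparisons. It had 35.5, 33.8 and 44.9 TPM with pou5f3.3 and sox3 MO, against 8.44, 8.38 and 9.27 TPM with GFP MO in collection G (log2 difference 2.05, SE 0.13, adjusted p = 2.6e-17). In collection F it had 51, 52.4 and 43.8 TPM with the double MO and 64.1, 55.9 and 54.2 TPM with the triple MO, against 16.7, 15.9 and 15.25 TPM with GFP MO (log2 differences 1.60, SE 0.11, and 1.82, SE 0.11). The single libraries of collection E had 57.2 TPM with pou5f3.3 and sox3 MO, 20.0 TPM with GFP MO and 8.21 TPM untreated. No MO library of these collections overlapped its GFP MO libraries. cldn4.L had 133, 129.9 and 119 TPM with the triple MO, against 70.0, 79 and 73.2 TPM with GFP MO in collection F, with no overlap but a log2 difference of 0.73 (SE 0.09), short of a call.

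pcdh10.L, which in mammals is expressed in the brain, was also higher than with GFP MO in all 3 comparisons. GFP MO itself stood below untreated embryos in collection E (1 library each, not tested). There pcdh10.L introns had 0.236 RPKM untreated, 0.047 with GFP MO and 0.506 with pou5f3.3 and sox3 MO, and those of pcdh10.S 0.301, 0.082 and 0.631 RPKM. In untreated stage 9 embryos of collection A pcdh10.L exons had a mean of 1.94 TPM. It had 2.24, 2.2 and 2.14 TPM with pou5f3.3 and sox3 MO, against 0.542, 0.829 and 0.776 TPM with GFP MO in collection G (log2 difference 1.55, SE 0.26), and with the triple MO 1.71, 1.26 and 1.75 TPM, against 0.20, 0.125 and 0.262 TPM with GFP MO in collection F (log2 difference 2.94, SE 0.37, adjusted p = 8.7e-09). pcdh8.L had 4.06, 3.81 and 3.8 TPM with the double MO and 3.08, 1.56 and 1.96 TPM with the triple MO, against 1.01, 0.413 and 0.54 TPM with GFP MO (log2 difference for the double MO 2.59, SE 0.23, adjusted p = 1.2e-13). Its exons in collection G had 0.982, 0.844 and 1.13 TPM with pou5f3.3 and sox3 MO, against 0.793, 0.372 and 0.538 TPM with GFP MO, and only its introns were called there, with 0.405, 0.484 and 0.609 RPKM with MO, against 0.203, 0.123 and 0.067 RPKM with GFP MO. pcdh18.S had introns at 2.8, 2.31 and 2.65 RPKM with the double MO, against 0.466, 0.452 and 0.652 RPKM with GFP MO (log2 difference 2.25, SE 0.23).

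Maternal copies were called here in their introns alone. The maternal cldn4.L, cldn6.1.S and cldn6.2.S had no intron row, so only their exons could have been called. cldn6.1.L introns had 2.43, 3.0 and 2.56 RPKM with the triple MO and 1.92, 0.942 and 1.25 RPKM with the double MO, against 0.109, 0.338 and 0.448 RPKM with GFP MO in collection F (log2 difference for the triple MO 3.04, SE 0.32, adjusted p = 2.7e-11), while its exons had 977, 964 and 983 TPM with the triple MO, against 945, 926 and 929 TPM with GFP MO. ocln.S introns had 0.773, 0.638 and 0.689 RPKM with the triple MO, against 0.142, 0.241 and 0.213 RPKM with GFP MO (log2 difference 1.75, SE 0.17). The intron levels of epcam.L were 9.32, 9.91 and 9.22 RPKM with pou5f3.3 and sox3 MO, against 3.09, 3.38 and 3.76 RPKM with GFP MO in collection G, which did not overlap, with a log2 difference of 1.37 (SE 0.12) that was just short of a call. cdh2.S was the copy that fell with the triple MO: its introns had 0.045, 0.029 and 0.022 RPKM, against 0.102, 0.116 and 0.097 RPKM with GFP MO (log2 difference -1.73, SE 0.21, adjusted p = 2.5e-09). Another copy called in collection G, cdh8.S, is named after its values were seen, lost its call without the first MO library or any GFP MO library, and reached 0.849 TPM in the MO libraries.

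**Figure D4:**
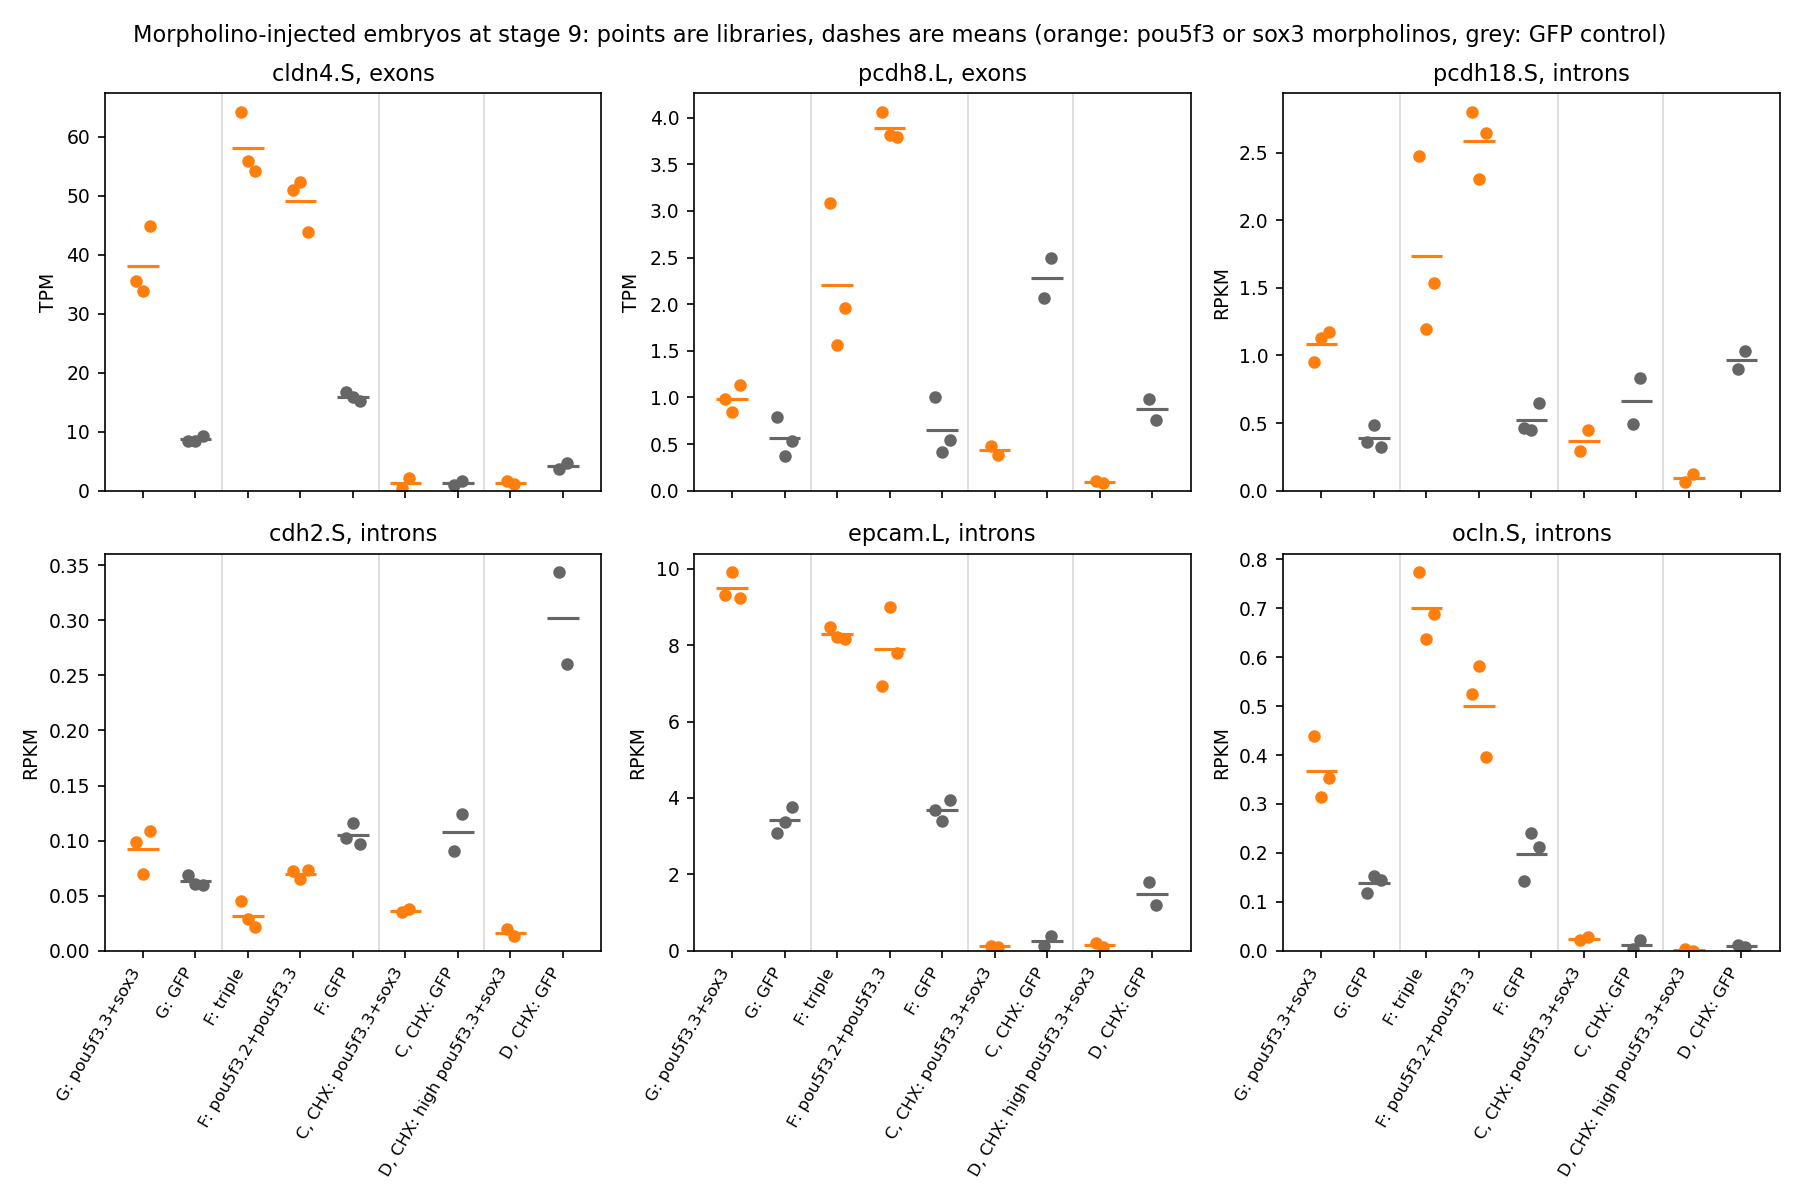
Levels of cldn4.S and pcdh8.L exons (TPM) and of pcdh18.S, cdh2.S, epcam.L and ocln.S introns (RPKM) in single stage 9 libraries, MO groups in orange and their GFP MO groups in grey, collections G and F without CHX and collections C and D with CHX. cldn4.S lies above GFP MO in G and F and below it in D, and cdh2.S introns lie lowest in the high-dose MO of D, at 0.020 and 0.013 RPKM, against 0.344 and 0.26 RPKM with GFP MO.

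With CHX the called copies were mostly lower. With the high dose of pou5f3.3 and sox3 MO in collection D 20 copies were lower than with CHX and GFP MO (8.04% of all genes) and 0 higher (0.0616%; by DESeq2 0, and at an unadjusted p under 0.05 1). The MO embryos of D received 55 ng and 75 ng of the 2 morpholinos, and their controls 80 ng of GFP MO. The targets and the larger amount of morpholino cannot be told apart in this comparison. Of the lower ones 12 were lower in exons, none of them maternal, beside 4.70% of all genes that were not maternal. cdh2.S introns had 0.020 and 0.013 RPKM with the high-dose MO, against 0.344 and 0.26 RPKM with GFP MO (log2 difference -4.15, SE 0.22, adjusted p = 4.8e-20). pcdh18.S had 0.408 and 0.378 TPM with the high-dose MO, against 4.66 and 4.35 TPM with GFP MO (log2 difference -3.46, SE 0.31, adjusted p = 4.2e-13). pcdh8.S had 0.121 and 0.067 TPM with the high-dose MO, against 1.69 and 1.08 TPM with GFP MO (log2 difference -3.77, SE 0.54). cdh3.L and epcam.L were lower in introns but not in exons: cdh3.L introns had 0.225 and 0.247 RPKM with the high-dose MO, against 1.87 and 1.55 RPKM with GFP MO (log2 difference -2.80, SE 0.20), and its exons had 239 and 271 TPM with the high-dose MO, against 248 and 274 TPM with GFP MO. Intron reads were lower over all genes in these embryos. Introns held 0.62% and 0.57% of the reads with the high-dose MO, against 1.71% and 1.51% with GFP MO. All 5 marker lists were lower too: with the high-dose MO the endoderm copies summed to 6.37 and 10.1 TPM, against 29.5 and 34.9 with GFP MO, those of mesoderm to 10.98 and 11.21 against 19.9 and 29.4, those of ectoderm to 210.5 and 233 against 255 and 263, the neural copies to 151 and 179.7 against 217 and 232, and the germ plasm copies to 612 and 674 against 686 and 749. Their part was not tested.

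In collection C, at a lower dose, fewer copies were called, but dose and collection cannot be told apart between C and D. With both MO 6 copies were lower (2.17% of all genes) and 1 higher (0.0399%), and with sox3 MO alone 1 was lower (0.0181%) and 0 higher (0%; by DESeq2 0, and at an unadjusted p under 0.05 2). With pou5f3.3 MO alone edgeR's test called 0 higher (0.0217%) and 0 lower (0.670%), DESeq2 called 0 higher and 0 lower, and at an unadjusted p under 0.05 0 were higher and 10 lower. The 3 comparisons share the GFP MO libraries. Of the marker lists, that of ectoderm was lower with both MO, at 207 and 210 TPM, against 230 and 254 TPM with GFP MO, while the endoderm (13.3 and 18.7 against 14.7 and 21.8), mesoderm (21.8 and 22.0 against 20.9 and 24.5), neural (312 and 334 against 333 and 360) and germ plasm sums (733 and 779 against 702 and 779) overlapped, and their part was not tested. With both MO 3 copies were called without the second GFP MO library, and 3 without the first library of both MO. pcdh8.L was the copy called with sox3 MO alone: it had 0.552 and 0.691 TPM with sox3 MO, 1.03 and 1.16 TPM with pou5f3.3 MO and 0.483 and 0.388 TPM with both, against 2.07 and 2.49 TPM with GFP MO (log2 difference for sox3 MO -1.86, SE 0.33, adjusted p = 0.0058, and for both MO -2.36, SE 0.35). The call with sox3 MO alone was not made by DESeq2, nor without the second GFP MO library or either sox3 MO library, which left 0 copies called. pcdh8.S had 0.29 and 0.559 TPM with both MO, against 2.02 and 1.6 TPM with GFP MO (log2 difference -2.04, SE 0.40). The copy that was higher was pcdh10.S, whose introns had 0.10 and 0.096 RPKM with both MO, against 0.033 and 0.014 RPKM with GFP MO (log2 difference 2.09, SE 0.41, adjusted p = 6.9e-04). In the same embryos pcdh10.L introns had 0.098 and 0.10 RPKM with both MO, against 0.123 and 0.122 RPKM with GFP MO.

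In collection H, whose CHX libraries the labels call discarded and whose CHX treatment the study's methods hold in doubt, 5 copies were lower in the libraries labelled CHX with the triple MO than in those labelled CHX with GFP MO (2.60% of all genes) and 2 higher (2.11%). Introns held between 2.42% and 2.95% of the reads of the 5 libraries labelled CHX, against 2.94% and 3.64% in the GFP MO libraries of H without CHX, and between 1.70% and 2.09% with CHX alone in collection B, against 5.29% and 5.46% with DMSO. pcdh10.S had 1.27 and 0.755 TPM with the triple MO, against 0.15, 0.271 and 0.396 TPM with GFP MO (log2 difference 1.83, SE 0.52, adjusted p = 0.014). cdh2.S introns had 0.048 and 0.040 RPKM with the triple MO, against 0.152, 0.188 and 0.161 RPKM with GFP MO (log2 difference -1.95, SE 0.21). pcdh8.L, lower here too, had 0.309 and 0.858 TPM with the triple MO, against 1.14, 1.02 and 2.41 TPM with GFP MO (log2 difference -1.51, SE 0.40), and the groups did not overlap. That call was not made by DESeq2 or with another scaling. The marker sums were 28.8 and 31.0 TPM for endoderm with the triple MO, against 21.0 to 26.1 with GFP MO, 8.08 and 10.9 against 15.7 to 20.8 for mesoderm, 294 and 301 against 278 to 290.4 for ectoderm, 186 and 215 against 233 to 247 for the neural list and 766 and 846 against 705 to 768 for germ plasm, and their part was not tested. Without the first triple MO library 3 copies were called in H, and without the third GFP MO library 4.

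The difference between the MO effect with CHX (collection C) and without CHX (collection G) was tested itself for pou5f3.3 and sox3 MO. Of the 74 copies 10 had a more negative effect with CHX (3.89% of all genes) and 1 a more positive one (0.156%). The largest was in pcdh8.L, where the effect with CHX minus that without was -3.06 in exons (SE 0.49, adjusted p = 1.5e-05) and -4.44 in introns. Without the second GFP MO library of C 6 copies were called, and without the first library of both MO in C 7, and neither set held cldn4.S. For cldn4.S it was -2.06 (SE 0.51, adjusted p = 0.0075): with CHX cldn4.S had 0.408 and 2.12 TPM with both MO, against 0.949 and 1.64 TPM with GFP MO in collection C. The MO groups of C and G differ in CHX, in collection and in the 40 ng of GFP MO that only G received, which cannot be told apart. Within collection F the triple MO embryos given CHX can be set directly against those without, and 34 copies were lower with CHX (31.2% of all genes) and 2 higher (0.514%). There cldn4.S had 1.12, 1.85 and 1.03 TPM with CHX, against 64.1, 55.9 and 54.2 TPM without (log2 difference -5.44, SE 0.17, adjusted p = 4.9e-31), and epcam.L introns had 0.166, 0.454 and 0.276 RPKM with CHX, against 8.47, 8.22 and 8.16 RPKM without (log2 difference -4.72, SE 0.19). With CHX the endoderm marker copies summed to between 5.89 and 9.53 TPM, against 174 to 243 without, those of mesoderm to between 7.69 and 9.80 against 67.9 to 86.0, and those of ectoderm to between 264 and 295 against 321 to 366, while neural (176 to 214 against 175 to 194) and germ plasm copies (584 to 693 against 587 to 668) overlapped, and their part was not tested. The 2 higher copies were cdh1.L, with 2.23, 0.591 and 0.859 TPM with CHX, against 0.399, 0.211 and 0 TPM without, and cdh6.S, with 1.72, 1.2 and 1.92 TPM with CHX, against 0.565, 0.427 and 0.591 TPM without.

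Collections themselves differed in some of these genes. Between the DMSO embryos of collections A and B, 9 copies were higher in A (4.45% of all genes) and 7 lower (5.49%). Between the GFP MO embryos of G and F, 2 were higher in G (5.54%) and 13 lower (6.50%). pcdh20.L was at 0 in all 3 GFP MO libraries of G, against 4.05, 4.84 and 4.55 TPM in F (at least 36.1-fold lower), while pcdh20.S had 5.8, 5.97 and 4.79 TPM in G, against 7.59, 7.15 and 7.01 TPM in F. With MO in G pcdh20.L was at 0, 0 and 0.042 TPM. cdh6.S was at 0 in the GFP MO libraries of G, against 1.27, 1.2 and 1.13 TPM in F (at least 8.24-fold lower), and had 3.79 and 3.52 TPM with DMSO in A, against 0.188 and 0.034 TPM in B (log2 difference 4.91, SE 0.46, adjusted p = 1.9e-12). cdh23.L, a hair cell tip-link cadherin in mammals, had 2.0 and 1.67 TPM with DMSO in A, against 0.161 and 0.248 TPM in B (log2 difference 3.01, SE 0.25). cdh6.S, cdh23.L and cdh5.L were also called higher at stage 9 than at stage 5, in embryos of collection A, and in A none of them was lower with triptolide: cdh6.S had 4.53 and 4.96 TPM with triptolide, against 3.79 and 3.52 TPM with DMSO. Stage and collection cannot be told apart in such copies.

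**Figure D5:**
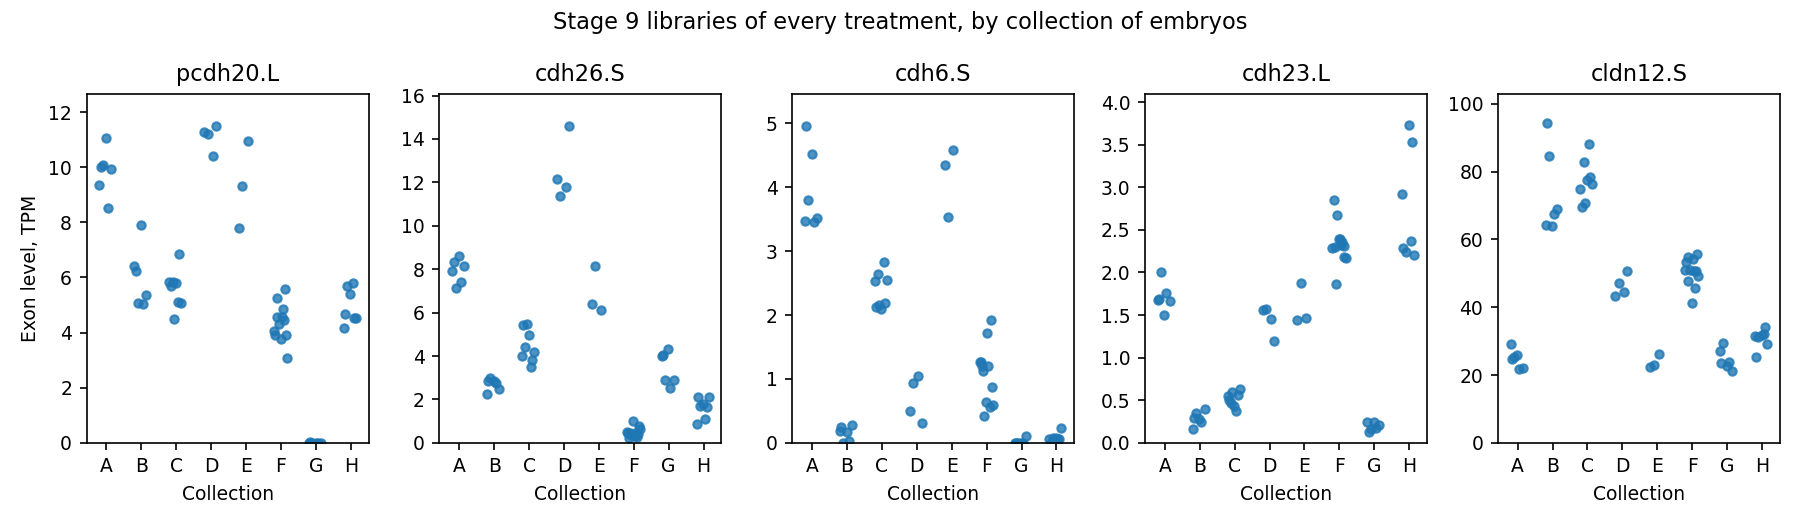
TPM of pcdh20.L, cdh26.S, cdh6.S, cdh23.L and cldn12.S in stage 9 libraries of every treatment, by collection A to H; each point is 1 library. pcdh20.L stands near 0 only in collection G, and cdh26.S stands at or below 1 TPM in F and reaches 14.6 TPM in D.

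The L and S copies of a gene did not always share a pattern; reads from stretches that are identical in both copies may be uncounted or assigned to either, and the difference between copies was not tested. The pairs of all other genes were not counted, so the pair counts here cannot be set beside a share over the genome. Among 27 pairs with both copies tested, both were maternal in 11, only L in 2 and only S in 1. Both copies were activated at stage 9 in 12 pairs, and only 1 copy met the rule in 6. For cldn6.1 and cldn6.2 (L met it) and for cdh1 and cldn4 (S met it) the other copy had no testable intron row, so it could have met the rule through its exons alone. For cldn7 (L) and tjp3 (S) both copies had testable introns, but those of cldn7.S were near the floor in collection A. There cldn7.S had 1 and 2 intron reads with DMSO and 0 and 0 with triptolide. In collection B it had 20 and 17 with DMSO and 1 and 2 with triptolide. The clearest case is cdh1, where at stage 10.5 the L copy had 0.226 and 0.15 TPM and the S copy 122 and 124 TPM. For cldn4 the L copy was maternal and the S copy was not, with 34.6 and 34.1 TPM and 0.183 and 0.096 TPM at stage 5. For pcdh8 the copies parted under the double MO of collection F, where pcdh8.S had 0.50, 0.42 and 0.57 TPM, against 1.21, 0.992 and 0.735 TPM with GFP MO, and pcdh8.L rose as given above.

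Partner genes of these proteins were counted in the same way. Of 24 tested copies of catenins and other adherens junction partners (nectins, afadin and vinculin among them), 16 were higher at stage 9 than at stage 5, where 35.4% of all genes were, and 1 lower, of 16 desmosome genes 12 were higher and 2 lower, and of 50 other tight junction and polarity genes 24 were higher and 2 lower. In exons 1 of the 24, 2 of the 16 and 1 of the 50 copies were higher, where 9.59% of all genes were. How many of these copies were maternal was not counted, so no share by class is set beside them. With triptolide in collection A 14 adherens junction, 11 desmosome and 19 other junction genes were lower (27.4% of all genes), and in collection B 17, 11 and 20 (29.8%). The catenins link cadherins to actin, and the desmosomes hold sheets of cells to their intermediate filaments.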

How the data were processed

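Total RNA of whole embryos was sequenced strand-specifically. Reads were mapped by the authors with HISAT2 (2.2.1 in the submitters' processing notes) to the X. laevis genome, and the authors deposited raw counts per gene from featureCounts 2.0.1, for exons and, apart, for introns without repeats or stretches read at stage 5. The authors also deposited the TPM of exons and the RPKM of introns, used here for levels only. Every sample column of the 4 tables was used.

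Exon rows with at least 0.5 RPM (reads scaled to library size) in a library, and intron rows with a count above 10 and an RPKM of at least 0.25 in a library, were fitted together in edgeR 4.0.16 (R 4.3.3; quasi-likelihood, TMM scaling over both), with 1 coefficient per group and all libraries except the 7 of collection H. A further fit with all libraries served for H. p-values were adjusted over all rows of a comparison. The fit was tested on simulated data. Where a group had no reads, folds were set against a floor of 3 counts per library.

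The genes and lists were chosen with earlier results of these data known. Genes were named where they are textbook members (both copies of genes such as cdh1, cdh2, cdh3, epcam, ocln, tjp1, cldn4, cldn6, pcdh1 and pcdh8), were among the 5 highest at stage 5 or at stage 10.5, or, in a comparison, were called with at most the 5 largest differences each way among those with a mean of at least 1 TPM or 0.25 RPKM in the higher group, and their other copy; exceptions are marked in the text. The alternatives were leaving out each library, no filter, a replicate block, DESeq2's size factors, TMM over exons alone, each comparison fitted alone, and DESeq2 1.42.0 in place of edgeR. The values of 1 further gene are not reported here, though it is in the counts. Gene length, sequence and coordinates were not used here.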

Additional observations from a re-analysis of the deposited data

Results flagged for a closer look

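For 11 copies the effect of pou5f3.3 and sox3 MO with CHX (collection C) differed from the effect without CHX (collection G) in edgeR's test of the difference between the effects. The values of 10 of them are given below, as log2 effects with CHX minus without: a negative one means that the MO embryos stood lower against GFP MO with CHX than without. CHX, collection and the added GFP MO of G cannot be told apart in them. Each copy passed an adjusted p of 0.05 and a difference of 1.5. pcdh8.L had -3.06 in exons and -4.44 in introns, and pcdh8.S -1.90 in exons. cdh2.L had -3.03 in exons and -1.87 in introns, and cdh2.S -1.93 in introns. cldn4.S had -2.06 in exons. pcdh10.L had -1.87 in exons and -2.54 in introns, whereas pcdh10.S had 1.70 in introns. pcdh18.S had -1.90 in exons and -2.19 in introns. In introns alone, pcdh7.S had -2.27 and epcam.L -2.56. Without the second GFP MO library of C the calls of cldn4.S, epcam.L, pcdh10.S and pcdh18.S ended, and 6 copies were called in all.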

How the results depend on the processing

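The report's comparisons held 494 calls, exons and introns counted apart, and no call turned its direction under any alternative run. DESeq2's size factors and TMM over exons alone each kept 488 of them, no filter on low counts 471, each comparison fitted alone 463, DESeq2's test 453 and the replicate block 458, while leaving out 1 library kept 2024 of 2257. The differences between 2 effects, the comparisons between collections and the crossed block below were added after seeing the data.

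The number of adhesion copies called stayed within 1.5 times under every alternative that kept all libraries, with these exceptions. With CHX and pou5f3.3 MO in collection C, where 0 were called, 1 was called with no filter. With CHX and sox3 MO in C, where 1 was called, 0 were called by DESeq2's test and 0 with the comparison fitted alone. With CHX and the triple MO in collection H, where 7 were called, 4 were called with the comparison fitted alone, 11 with no filter and 4 with the replicate block. For the difference of the triptolide effects, where 1 was called, 2 were called by DESeq2's test, 0 with the comparison fitted alone and 2 with no filter. The cause of these moves was not tested.

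Leaving out 1 library at a time gave between 9 and 11 copies called at stage 8 against stage 5 (14 with all, 9 without the second stage 8 library) and between 2 and 5 in collection G (5 with all, 2 without the third GFP MO library and 3 without the first MO library). With CHX in collection C it gave between 3 and 8 for both MO (7 with all, 3 without the second GFP MO library or the first MO library), between 0 and 2 for pou5f3.3 MO (0 with all, 1 without the first GFP MO library and 2 without the second MO library) and between 0 and 1 for sox3 MO (1 with all, 0 without the second GFP MO library or either MO library). In H it gave between 3 and 7 (7 with all, 3 without the first triple MO library and 4 without the third GFP MO library). For the MO effects with and without CHX it gave between 6 and 12 (11 with all, 6 without the second GFP MO library of C and 7 without its first library of both MO). For the triptolide effects it gave between 0 and 2 (1 with all, 0 without the first triptolide library of A or the second of B, and 2 without the second DMSO library of A or of B). An arm left with 1 library was assumed to vary like the other groups.

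Replicate numbers did not pair the libraries: in no comparison with 3 pairs were all correlations of same-numbered deviations over 0.1. The replicate block gave 458 of the 494 calls. In collection B the numbers of triptolide ran against those of DMSO (correlation -0.14) and of CHX (-0.49), and with crossed numbers 33 and 24 copies were called, against 33 and 25 without a block.

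Of all genes, fitting the comparison alone called 2 higher and 324 lower with CHX and both MO in C (11 and 599 in the joint fit), and no filter called 926 higher and 712 lower with the double MO in F (619 and 446 with the filter) and 1574 and 532 in G (940 and 400), and the other scalings moved the median over all genes by up to 0.42 at stage 10.5, 0.16 at stage 9 and -0.19 with triptolide. Of the 109 genes, 88 had an intron row and 33 of these enough intron reads for a test, and copies at 0 in a library may lie under the floor of 3 counts.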
